A study of Mus musculus with 12 samples.

Results

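This account covers 10 mouse genes for chains of cytokine receptors, Il7r, Il9r, Il4ra, Il6ra, Il6st, Il1rl1, Il10ra, Il18r1, Il21r and Ifngr1. They are the rows of the deposited count table whose Ensembl identifiers carry these symbols, and all 10 were found among 21839 genes. Reads per gene were counted in 12 RNA-seq libraries of CD4 T cells from spleen and lymph nodes of C57BL/6 mice, sorted for high or low surface CD25, the interleukin-2 receptor alpha chain encoded by Il2ra, and labelled as regulatory T cells (Tregs). All animals carried 2 loxP-flanked Atg5 alleles (Atg5 flox/flox). TG mice also carried CD11c Cre +/-, in which the CD11c promoter drives Cre recombinase in dendritic cells and other CD11c-expressing cells and so removes Atg5, a gene needed for autophagy. WT mice were littermates without Cre (CD11c Cre -/-). The 4 groups, TG CD25 High, WT CD25 High, TG CD25 Low and WT CD25 Low, held 3 libraries each, numbered 1 to 3. The labels state neither ages nor whether a library came from 1 animal or several. Each p-value therefore sets a difference against the spread between these libraries, which need not be that between animals.

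Cytokine receptors of this kind work as pairs. A private chain binds the cytokine, a second chain, often shared between several cytokines, joins it, and the complex passes the signal to Janus kinases and STAT proteins inside the cell. Interleukin-7, interleukin-9, interleukin-4 and interleukin-21 use the common gamma chain Il2rg as their shared chain, and interleukin-6 uses gp130, encoded by Il6st. The receptors for interleukin-33 (Il1rl1, also called ST2) and interleukin-18 (Il18r1) belong instead to the interleukin-1 receptor family and signal through Myd88 and Irak kinases. In T cells, high Il7r is known as a mark of resting conventional and naive cells and low Il7r as a mark of many Tregs, whereas Il1rl1 marks a set of tissue and effector Tregs.

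The defining transcripts of CD4 T cells were present: Cd4 lay between 513 and 715 CPM (counts relative to the library total, scaled by the trimmed mean of M values, TMM) and Cd3e between 921 and 1145 CPM in all 12 libraries. Foxp3, the transcription factor that defines Tregs, averaged 1537 ± 99.0 CPM in CD25 High, against 1113 ± 77.2 CPM in CD25 Low libraries (SD, n = 6 each), and Il2ra averaged 1186 ± 86.2 CPM in CD25 High, against 591 ± 107 CPM in CD25 Low. Total counts ran from 6767828 in TG CD25 High replicate 2 to 23942479. Libraries with the same number resembled each other across all 4 groups. The number 1 libraries stood apart, with a summed level of 20 cell cycle genes of 769 to 1234 CPM against 331 to 408 CPM in the other 8, and of 13 B cell genes of 827 to 1312 CPM against 364 to 637 CPM. Each test was therefore read in a pair of models, the first with the groups alone and the second adding the replicate number as a term (the replicate block). Atg5 itself, which Cre removes in CD11c-expressing cells, was at 33.9 to 41.5 CPM in the TG libraries and 32 to 37.5 CPM in the WT libraries. These counts cover the whole gene, and whether the sorted T cells kept it intact was not tested.

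Upstream sequence is shown for the 2 genes among the 3 called in the CD25 comparison whose window of 250 bases lies outside annotated transcripts. Both are from RefSeq on GRCm38.p6, written 5' to 3' on the minus strand and ending at the base before the transcription start, at chr11:32200280-32200529 for Il9r and chr3:89913197-89913446 for Il6ra. Capitals would mark a match to the STAT motif TTCNNNGAA or to the forkhead motif GTAAACA on either strand; these windows hold neither.
Il9r: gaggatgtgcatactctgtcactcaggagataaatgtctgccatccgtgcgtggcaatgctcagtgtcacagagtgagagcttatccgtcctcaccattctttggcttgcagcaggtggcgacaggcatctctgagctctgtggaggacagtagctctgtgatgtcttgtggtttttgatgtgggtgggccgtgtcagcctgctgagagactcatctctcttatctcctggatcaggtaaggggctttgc
Il6ra: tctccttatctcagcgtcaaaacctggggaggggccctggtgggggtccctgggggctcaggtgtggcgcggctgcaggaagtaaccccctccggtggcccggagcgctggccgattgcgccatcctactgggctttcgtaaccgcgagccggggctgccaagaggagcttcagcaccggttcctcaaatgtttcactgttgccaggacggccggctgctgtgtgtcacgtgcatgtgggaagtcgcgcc
The STAT motif occurred in 2726 of 32851 RefSeq promoter windows (8.3%) and the forkhead motif in 1199 (3.65%), each read over 250 bases before to 50 bases after the start. Of the other members with a window, Il7r had 1 STAT match, 142 bases before the start (position -142), and Il21r had 1 forkhead match, 38 bases before it (position -38). The window of a second Il1rl1 start held 1 forkhead match, at -117, and that of a further Il18r1 start held 2 STAT matches. Il10ra is named only. A match is a run of letters and no evidence of binding.

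Levels between genes were compared per kilobase of merged exons. Il21r was highest at 179 ± 21.0 CPM per kb (SD over 12 libraries), followed by Ifngr1 at 153 ± 32.5 and Il4ra at 99.6 ± 12.6 CPM per kb. Il21r and Ifngr1 overlapped, but every library of Ifngr1 lay above every library of Il4ra, and Il4ra in turn above Il6ra. A middle group followed on the same scale, with Il6ra at 43.5 ± 6.00, Il7r at 40.0 ± 11.2, Il6st at 32.8 ± 3.72 and Il10ra at 30.8 ± 4.05 CPM per kb, whose neighbours overlapped. Far below, and without overlap with Il10ra, came Il18r1 at 2.90 ± 1.04, Il1rl1 at 2.54 ± 2.04 and Il9r at 2.22 ± 2.54 CPM per kb. The abundant receptors were thus those for interleukin-21, interferon gamma and interleukin-4, and the scarce ones were those for interleukin-18, interleukin-33 and interleukin-9. The shared gamma chain Il2rg exceeded them all at 757 CPM per kb. All 10 members and 7 of 7 partner chains passed the filter on low counts, with raw counts per library from 20 (Il9r, WT CD25 High replicate 3) to 16166 (Il21r, WT CD25 High replicate 2).

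**Figure D1:**
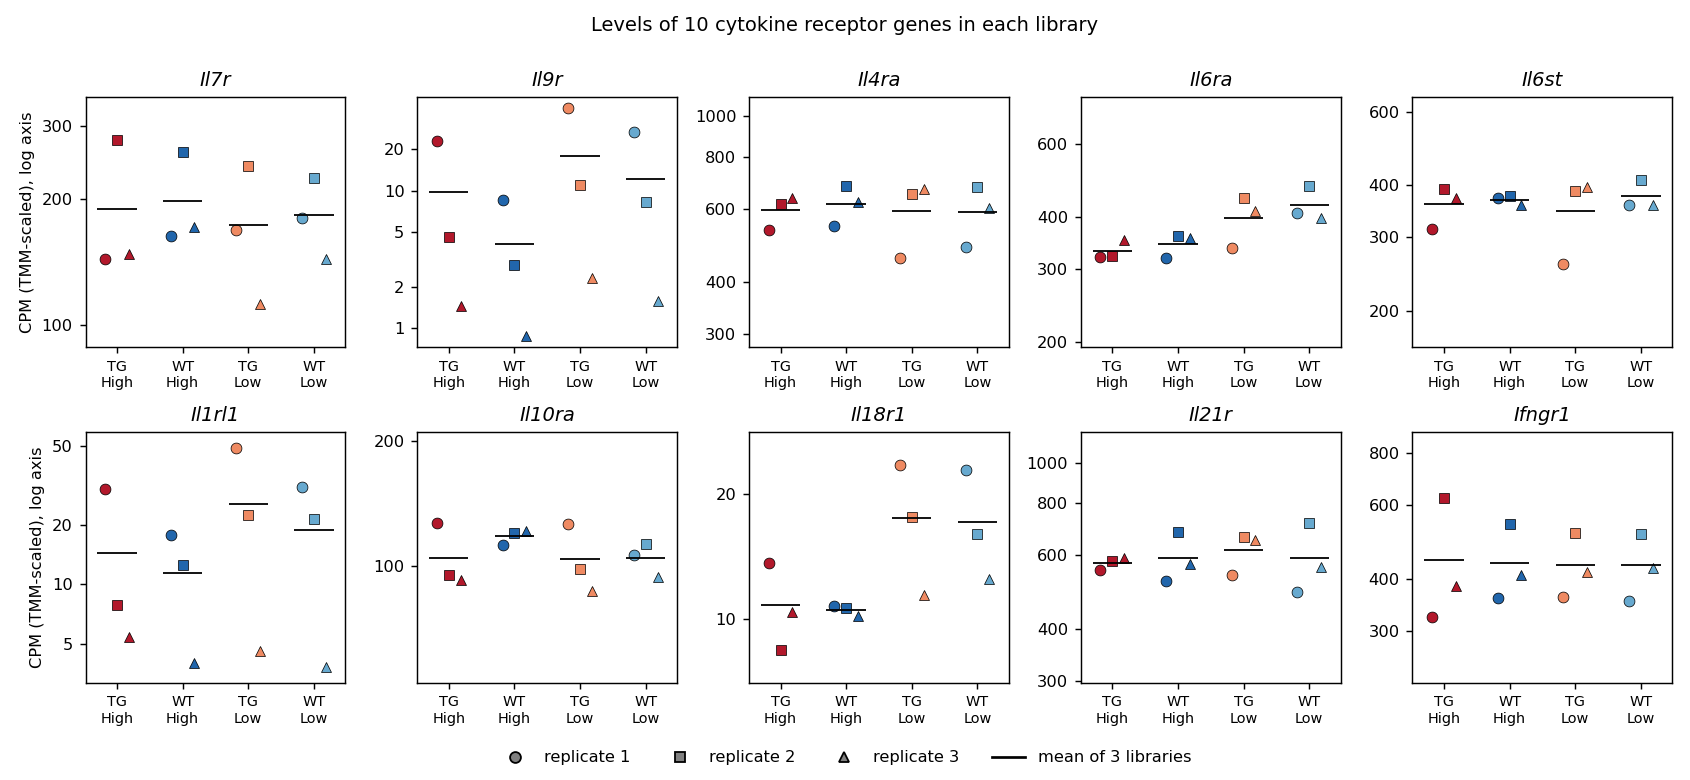
Level of each of the 10 genes in every library, in TMM-scaled CPM on log axes whose span differs between panels; the marker shape gives the replicate number and the bar the mean of 3 libraries. Il9r, Il1rl1 and Il18r1 are highest in the number 1 libraries of every group, and Il7r and Ifngr1 in the number 2 libraries.

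CD25 High cells were first compared with CD25 Low cells, averaged over TG and WT. With the replicate block, 3 of the 10 receptor genes fell in CD25 High cells, Il9r, Il18r1 and Il6ra, and none rose (edgeR quasi-likelihood test, Benjamini-Hochberg adjusted p under 0.05). Among all 11766 tested genes 5.88% were called in this comparison and 2.63% were called lower. Without the block 0 of the 10 were called, where 0.518% of all genes were; 2 members, Il18r1 and Il6ra, then had an unadjusted p under 0.05, and DESeq2 without the block called these 2 (2.07% of the genes it adjusted). The median log2 change of the 10 was -0.02 with the block, against 0.00 over all genes tested, and 5 of the 10 had a positive and 5 a negative change. In bulk libraries, fewer cells of a kind and less RNA per cell cannot be told apart.

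Il9r, the private chain of the interleukin-9 receptor (ENSMUSG00000020279, chromosome 11 from 32187541 to 32200279, minus strand, 8 merged exons), showed the largest difference of the 10. In TG mice it was at 23.1, 4.59 and 1.45 CPM in CD25 High libraries 1 to 3, against 40.3, 11.0 and 2.33 CPM in the CD25 Low libraries. In WT mice it was at 8.57, 2.91 and 0.872 CPM in CD25 High, against 26.9, 8.29 and 1.57 CPM in CD25 Low libraries 1 to 3. The groups overlapped because the replicate numbers differed more than the gates did, yet CD25 High was below CD25 Low in 6 of 6 same-numbered pairs, with ratios of 0.318 to 0.624 and a median of 0.488. With the block the log2 change was -1.17 (SE 0.13, 95% interval -1.42 to -0.91, adjusted p = 4.93e-05), a level 0.446 times that of CD25 Low. Without the block it was -1.22 with an SE of 0.98 (adjusted p = 0.857). By genotype, the blocked log2 change of Il9r was -0.87 in TG (SE 0.18, adjusted p = 0.0204) and -1.46 in WT (SE 0.19, adjusted p = 5.64e-04). The counts behind these values were small in some libraries: 30 reads in TG CD25 High replicate 2 and 20 to 44 reads in the number 3 libraries.

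Il18r1, the ligand-binding chain for interleukin-18 (ENSMUSG00000026070, chromosome 1 from 40465552 to 40500854, plus strand), was at 13.6, 8.42 and 10.4 CPM in TG CD25 High, against 23.5, 17.6 and 11.4 CPM in TG CD25 Low libraries 1 to 3. In WT it was at 10.7, 10.6 and 10.2 CPM in CD25 High, against 22.8, 16.0 and 12.5 CPM in CD25 Low. All 3 WT CD25 High libraries lay below all 3 WT CD25 Low libraries, while the TG groups overlapped. The share of all genes separated this way was not counted, so the separation adds nothing to the test. The blocked log2 change over both genotypes was -0.64 (SE 0.13, interval -0.89 to -0.40, adjusted p = 0.00549), and the pair ratios ran from 0.470 to 0.914, below 1 in 6 of 6. The difference was smallest in the number 3 pairs, at 0.914 in TG and 0.814 in WT, and without the 4 number 1 libraries the call was lost (adjusted p = 0.192).

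Il6ra, which binds interleukin-6 and hands it to gp130 (ENSMUSG00000027947, chromosome 3 from 89864059 to 89913196, minus strand), was far more abundant and changed less. TG CD25 High libraries 1 to 3 held 322, 323 and 353 CPM, against 337, 445 and 414 CPM in TG CD25 Low. WT CD25 High held 319, 360 and 357 CPM, against 410, 475 and 398 CPM in WT CD25 Low. Every WT CD25 High library was below every WT CD25 Low library, and in TG only the lowest CD25 Low library reached into the CD25 High range. As for Il18r1, the share of all genes separated this way was not counted. The blocked log2 change was -0.28 (SE 0.06, interval -0.40 to -0.16, adjusted p = 0.00939), a level 0.823 times that of CD25 Low, with pair ratios of 0.725 to 0.955 in 6 of 6 pairs below 1. Without the 4 number 1 libraries the adjusted p was 0.0789 at a log2 change of -0.31. The annotated antisense gene Gm42809 overlaps exons of Il6ra and the library chemistry does not record strand, so reads of the pair cannot be told apart.

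Il6st, the signalling partner of Il6ra, did not pass the test. The gene (ENSMUSG00000021756, chromosome 13 from 112464070 to 112510086, plus strand) was at 315, 392 and 374 CPM in TG CD25 High, against 258, 388 and 396 CPM in TG CD25 Low libraries. In WT the values were 372, 378 and 360 CPM in CD25 High, against 358, 413 and 360 CPM in CD25 Low. The groups overlapped, and the blocked log2 change was 0.02 (interval -0.12 to 0.16, adjusted p = 0.928). The difference between the changes of Il6ra and Il6st was not tested.

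Il1rl1, the interleukin-33 receptor ST2 (ENSMUSG00000026069, chromosome 1 from 40429570 to 40465415, plus strand), lies 136 bases before Il18r1 on the same strand. Its levels were 30.1, 7.81 and 5.39 CPM in TG CD25 High, against 48.9, 22.4 and 4.61 CPM in TG CD25 Low libraries 1 to 3. In WT they were 17.7, 12.5 and 4.01 CPM in CD25 High, against 31.1, 21.4 and 3.82 CPM in CD25 Low. CD25 High was below CD25 Low in the 4 pairs numbered 1 and 2 and slightly above it in the pairs numbered 3, at ratios of 1.17 in TG and 1.05 in WT. The blocked log2 change of -0.59 (SE 0.22, interval -1.03 to -0.16) missed the threshold with edgeR (adjusted p = 0.188) and passed it with DESeq2 and the same block (adjusted p = 0.0487), where DESeq2 called 6.62% of genes.

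**Figure D2:**
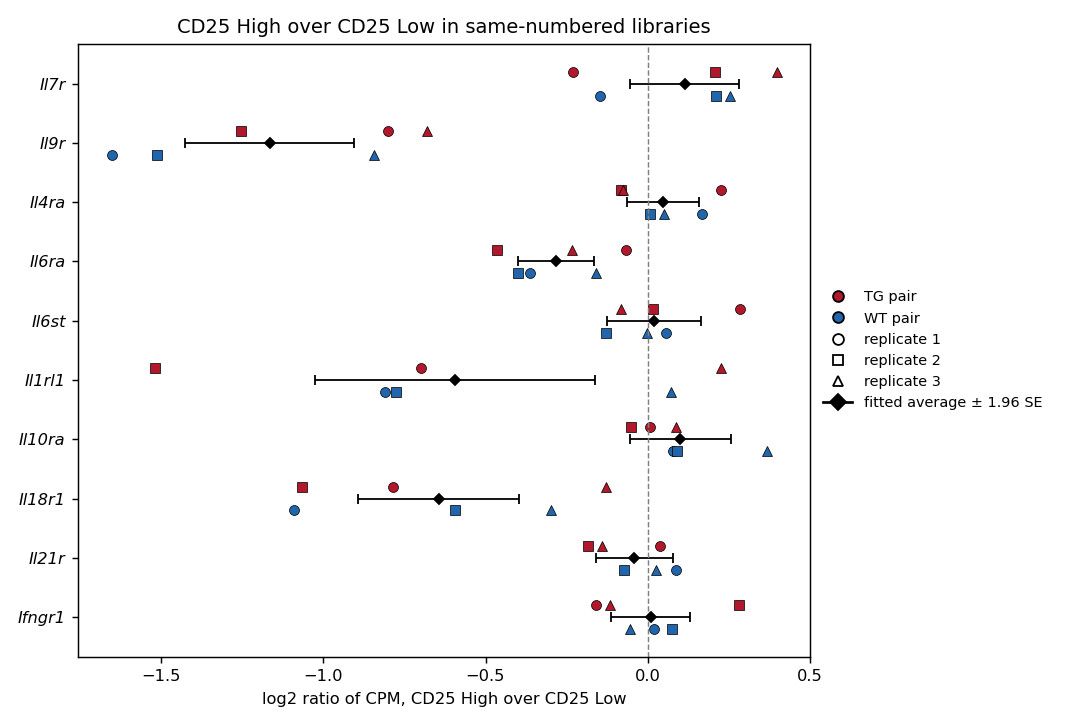
CD25 High over CD25 Low as a log2 ratio of CPM in each same-numbered pair (red, TG; blue, WT; marker shape, replicate number), with the fitted average over TG and WT in the blocked model and its 95% interval (black diamond). All 6 pairs of Il9r, Il6ra and Il18r1 lie left of 0, and the points of Il1rl1 fall on both sides.

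Il7r, the interleukin-7 receptor alpha chain (ENSMUSG00000003882, chromosome 15 from 9505788 to 9530176, minus strand), was at 144, 278 and 148 CPM in TG CD25 High libraries 1 to 3, against 169, 241 and 112 CPM in TG CD25 Low. In WT it was at 163, 260 and 172 CPM in CD25 High, against 181, 225 and 144 CPM in CD25 Low. The number 2 libraries were the highest in every group and the gates overlapped throughout. CD25 High was above CD25 Low in the 4 pairs numbered 2 and 3 and below it in both pairs numbered 1, with ratios of 0.853 to 1.32. The blocked log2 change was 0.11 (SE 0.09, adjusted p = 0.542). Its blocked interval, -0.06 to 0.28, excludes a fall in CD25 High as large as that of Il6ra. The interval without the block, -0.35 to 0.59, does not. Crlf2, which pairs with Il7r to bind thymic stromal lymphopoietin, did fall, to 31.9 ± 4.21 CPM in CD25 High, against 38.5 ± 3.66 CPM in CD25 Low (SD, n = 6 each; blocked log2 -0.27, SE 0.07, adjusted p = 0.0326; unblocked adjusted p = 0.446).

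The 4 remaining members kept similar levels in both gates. Il4ra, the chain that binds interleukin-4 (ENSMUSG00000030748, chromosome 7 from 125552120 to 125579474, plus strand), ran from 534 to 680 CPM in CD25 High, against from 456 to 677 CPM in CD25 Low (blocked log2 0.05, interval -0.06 to 0.16). Il21r, the interleukin-21 chain, lies 23954 bases beyond it on the same strand (ENSMUSG00000030745, 125603429 to 125633570) and ran from 521 to 681 CPM in CD25 High, against from 490 to 717 CPM in CD25 Low (-0.04, interval -0.16 to 0.08). Ifngr1, the ligand-binding chain for interferon gamma (ENSMUSG00000020009, chromosome 10 from 19591949 to 19610229, plus strand), ran from 323 to 625 CPM in CD25 High, against from 354 to 515 CPM in CD25 Low (0.01, interval -0.11 to 0.13). Il10ra, the interleukin-10 binding chain (ENSMUSG00000032089, chromosome 9 from 45253837 to 45269149, minus strand), ran from 92.3 to 127 CPM in CD25 High, against from 86.8 to 126 CPM in CD25 Low (0.10, interval -0.06 to 0.26). None of the 4 passed the test, and each blocked interval excludes a change as large as that of Il6ra in the downward direction. For Ifngr1 the interval without the block, -0.32 to 0.38, does not. The antisense gene Gm44876 overlaps exons of Il4ra, with the same limit of unstranded reads as for Il6ra.

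Within each genotype, the blocked test called 1 of the 10 members, Il9r, in TG, where 1.68% of all genes were called, and 1 of 10, again Il9r, in WT, where 1.63% were. Without the block 0 of 10 were called in TG (0.0085% of all genes) and 0 of 10 in WT (0.051%), with unadjusted p under 0.05 for Il18r1 and Il6ra in each; DESeq2 without the block called 0 in both (0.481% of genes in TG and 0.36% in WT). DESeq2 with the block called Il9r in TG (2.96% of genes) and Il9r and Il6ra in WT (2.08%). The Il9r call in TG was lost when TG CD25 High replicate 1, TG CD25 High replicate 2, TG CD25 Low replicate 1 or TG CD25 Low replicate 2 was left out (adjusted p = 0.0690, 0.0789, 0.229 and 0.0638).

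Of the 7 partner chains, 2 fell in CD25 High cells with the block and 0 rose. Besides Crlf2 this was Il18rap, the accessory chain of the interleukin-18 receptor, at 3.18 ± 1.79 CPM in CD25 High, against 5.91 ± 4.94 CPM in CD25 Low (SD, n = 6 each; blocked log2 -0.71, SE 0.20, adjusted p = 0.0497; unblocked log2 -0.92, SE 0.66, adjusted p = 0.830). CD25 High was below CD25 Low in 5 of 6 same-numbered pairs of Il18rap, and the TG number 3 pair went the other way at a ratio of 1.27. Il2rg (log2 -0.02), Il10rb (0.06), Ifngr2 (0.02), Il1rap (0.15) and the scarce Il13ra1 (-0.49, SE 0.54) did not pass.

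Of 39 other cytokine receptor chains, 22 passed the filter and 4 were called with the block. Il2ra (log2 1.02, SE 0.06, the chain used for the gate) and Il2rb (0.85, SE 0.05), the alpha and beta chains of the interleukin-2 receptor, were higher in CD25 High. Ifnar1, a chain of the type I interferon receptor, was at 332 ± 35.7 CPM in CD25 High, against 291 ± 43.8 CPM in CD25 Low (log2 0.20, SE 0.05, adjusted p = 0.0305). Il1rl2, the interleukin-36 receptor, was at 0.963 ± 0.302 CPM in CD25 High, against 2.12 ± 0.357 CPM in CD25 Low (log2 -1.12, SE 0.24, adjusted p = 0.0095). Of these 4, Il2ra and Il2rb were also called without the block. The median log2 change of the 22 was 0.04, against 0.00 over all genes.

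**Figure D3:**
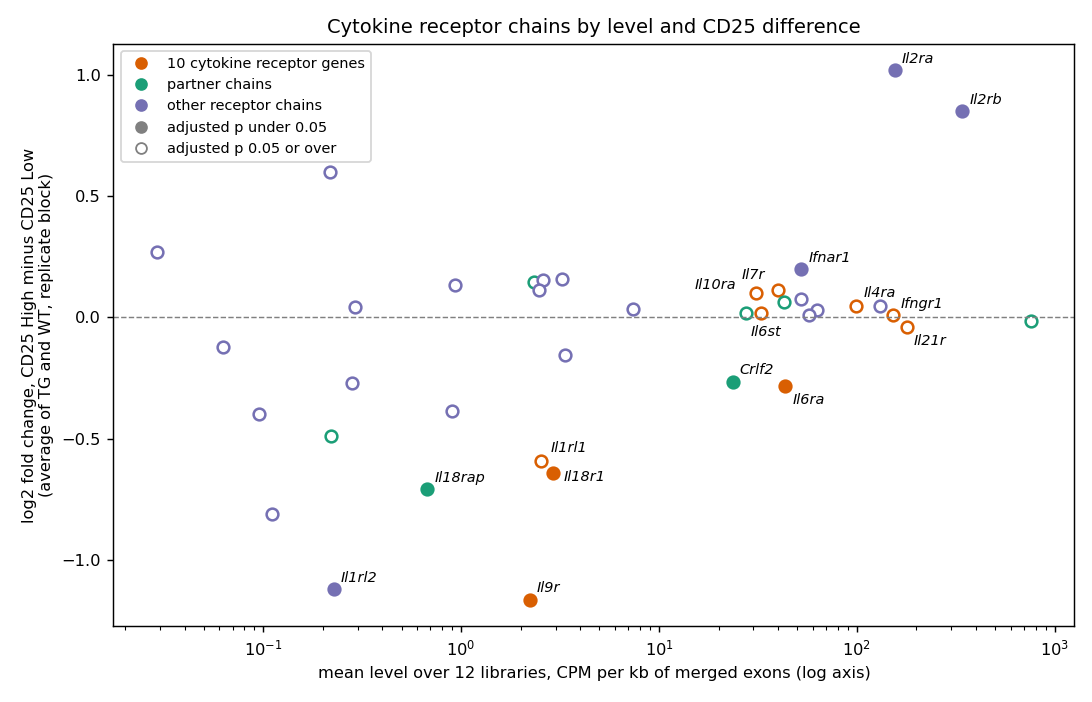
Mean level over 12 libraries in CPM per kb (log axis) against the blocked log2 change, CD25 High minus CD25 Low, for the 10 members (orange), 7 partner chains (green) and 22 other tested cytokine receptor chains (purple); filled points had an adjusted p under 0.05. Il9r and Il1rl2 lie lowest, Il2ra and Il2rb highest, and the abundant members other than Il6ra lie near 0.

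Among the signal carriers behind these receptors, 1 of 11 Janus kinases and STATs was called with the block. Stat5a, a target of interleukin-2, interleukin-7 and interleukin-9 receptors, rose to 189 ± 10.5 CPM in CD25 High, against 159 ± 10.7 CPM in CD25 Low (log2 0.26, SE 0.05, adjusted p = 0.00929). Of 7 adaptors and kinases of the interleukin-1 receptor family 2 rose: Irak2 (log2 0.32, SE 0.06) and the ubiquitin ligase Traf6 (0.32, SE 0.07), while Myd88 (-0.09), Irak1 (0.05) and Irak4 (-0.15) did not pass. Of 16 transcription factors tied to the member genes, Foxp3 (0.47, SE 0.06) and Gata3 (0.18, SE 0.05), a factor of Th2 cells and Tregs, were higher. Tbx21 (-0.89, SE 0.19), which drives the Th1 programme, and Maf (-0.82, SE 0.18) were lower. Foxo1, known to activate Il7r in T cells, was at -0.07 (SE 0.05) and did not pass. Of these calls Foxp3 was the one also made without the block.

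The cytokines themselves were scarce. Of 11 genes for ligands of the members 3 passed the filter, Il10 (log2 -0.97, SE 0.52), Il18 (-1.09, SE 0.41) and Ifng (-0.87, SE 0.31), and 0 were called with the block; 2 of the 3, Il18 and Ifng, had an unadjusted p under 0.05. Il9 and Il13 had 0 counts in all 12 libraries. At these depths a limit of 3 counts corresponds to 0.125 CPM in the deepest library and 0.443 CPM in the shallowest, from unscaled totals.

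Markers of other cells and cell states also differed between the gates, and most of these calls needed the block. Of 12 genes marking conventional CD4 T cells 8 fell in CD25 High with the block and 3 without it (Pde3b, Dapl1 and Vipr1), and 0 rose in either (blocked median log2 -0.53). Their summed level was 1807 to 2409 CPM in CD25 High, against 2060 to 3154 CPM in CD25 Low, and lower in CD25 High in 6 of 6 same-numbered pairs. Of 22 genes of activated or effector Tregs 11 were called with the block and 0 without. The 7 higher ones included Ctla4 (log2 0.50, SE 0.07) and Tnfrsf4 (0.63, SE 0.07), and the 4 lower ones were Tigit (-0.90, SE 0.18), Cxcr3 (-1.40, SE 0.14), Ccr2 (-1.15, SE 0.14) and S100a4 (-1.44, SE 0.26). The effector sum was 1801 to 3082 CPM in CD25 High, against 1435 to 3474 CPM in CD25 Low, and in 1 of 6 pairs the CD25 High sum was the lower one. Of 13 naive T cell genes 4 were lower with the block, Satb1, Igfbp4, Dapl1 and Ly6c1, and 1 without it, Dapl1; those 4 also stand in the conventional list. In 3 of 6 pairs the naive sum was below that of CD25 Low.

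For B cell genes the sum was 364 to 1251 CPM in CD25 High, against 443 to 1312 CPM in CD25 Low, lower in 6 of 6 pairs, with 1 of 13 genes, Cd22, lower with the block and 0 called without. For CD8 T or NK cell genes it was 69.1 to 99.0 CPM in CD25 High, against 57.2 to 125 CPM in CD25 Low, lower in 4 of 6 pairs, with 5 of 11 tested genes lower with the block and 0 called without. Myeloid genes summed to 10.7 to 41.9 CPM in CD25 High, against 9.06 to 137 CPM in CD25 Low, lower in 3 of 6 pairs, with 2 of 8 genes lower with the block and 0 called without. Mast cell and basophil genes, a class known to carry Il1rl1 and Il9r, summed to 4.74 to 8.89 CPM in CD25 High, against 5.99 to 9.91 CPM in CD25 Low, lower in 4 of 6 pairs. Of 4 tested genes in that class 1, Cd200r3, was lower with the block and 0 were called without, and the defining genes Fcer1a, Ms4a2, Tpsab1 and Tpsb2 were at 0 in every library. For group 2 innate lymphoid and Th2 cells the sum was 282 to 410 CPM in CD25 High, against 265 to 438 CPM in CD25 Low, lower in 2 of 6 pairs. Most of it was Gata3, also a factor of Tregs, at 248 to 292 CPM in CD25 High and 213 to 255 CPM in CD25 Low. The sum therefore says little about these cells. Of 6 tested genes 1, Gata3, was higher with the block and 0 were called without. Of all 12 genes 6 were under 1 CPM throughout, with Il13 at 0. Cell cycle genes summed to 331 to 1234 CPM in CD25 High, against 336 to 890 CPM in CD25 Low, lower in 4 of 6 pairs. Of these 20 genes 19 had a positive and 1 a negative blocked log2 change. With the block 2, Top2a and Nusap1, were called higher, and 0 were called without. Gamma delta T cell genes summed to 18.8 to 32.9 CPM in CD25 High, against 12.9 to 32.3 CPM in CD25 Low, lower in 1 of 6 pairs. Of 4 tested genes in that list 0 were called in either model. The part of any of these cells or states in the lower Il9r, Il18r1 and Il6ra was not tested.

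More of the receptor genes were called between replicate numbers than between gates. In a contrast added after the values were seen, of the number 1 libraries against those numbered 2 and 3 with the 4 groups held constant, 7 of 10 members were called, where 27.5% of all genes were. The SEs and p-values of this contrast come from the spread left after the replicate numbers are fitted, with the 4 libraries of a number taken as separate units. They do not measure how far replicate numbers vary among themselves, so the calls describe these libraries alone. Il9r was higher by a log2 of 2.88 (SE 0.13, adjusted p = 1.99e-10), Il1rl1 by 1.85 (SE 0.22) and Il18r1 by 0.50 (SE 0.13) in the number 1 libraries. Ifngr1 (-0.44, SE 0.07), Il4ra (-0.35, SE 0.06), Il21r (-0.25, SE 0.06) and Il6st (-0.24, SE 0.08) were lower there, and Il7r, Il6ra and Il10ra did not pass. The 3 scarce receptors thus lay above, and the 3 abundant ones and Il6st below. Averaged over the 4 groups, Il9r was at 24.7, 6.69 and 1.56 CPM in libraries numbered 1, 2 and 3, and Il1rl1 at 32.0, 16.0 and 4.46 CPM. Il7r averaged 164, 251 and 144 CPM and Ifngr1 349, 548 and 408 CPM over the same numbers, so that for these genes the number 2 libraries were the high ones.

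In the same contrast 19 of 22 genes of activated or effector Tregs were higher in the number 1 libraries and 0 lower, and their summed level was 2606 to 3474 CPM there, against 1435 to 1939 CPM in the other 8. Of 13 genes typical of naive T cells, 10 were lower and 0 higher, at a summed 6935 to 7459 CPM in number 1 libraries, against 8484 to 9499 CPM in the others. All 20 cell cycle genes and 13 of 13 B cell genes were higher, and myeloid genes summed to 20.7 to 137 CPM, against 9.06 to 17.9 CPM. Which of these differences goes with the receptor genes was not tested, and the labels do not say what the numbers mark.

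**Figure D4:**
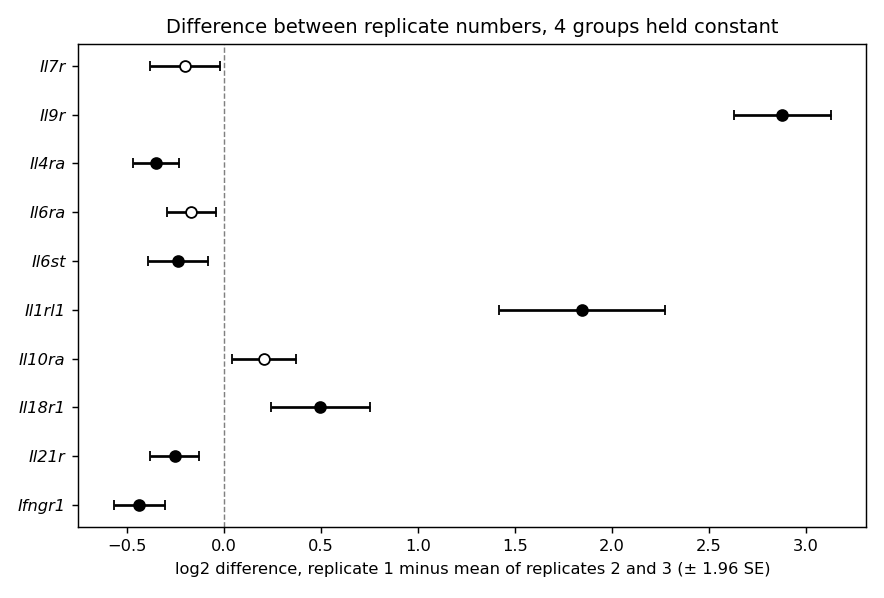
Log2 difference between the number 1 libraries and the mean of those numbered 2 and 3 for the 10 members, with 95% intervals and the 4 groups held constant; filled points had an adjusted p under 0.05. The intervals do not measure how far replicate numbers vary among themselves. Il9r, Il1rl1 and Il18r1 lie right of 0, and Il4ra, Il6st, Il21r and Ifngr1 left of it.

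TG cells were next compared with WT cells in each gate, which asks whether loss of Atg5 in dendritic cells goes with other receptor RNA levels in the T cells. With edgeR 0 of the 10 members were called in CD25 High and 0 in CD25 Low, with or without the block, where 0% of all genes were called. Without the block 0 members had an unadjusted p under 0.05 in either gate, and with it 1 had, Il9r, in each. DESeq2 without the block called 0 members and 0% of genes in either gate. With the block it called 1 member, Il9r, in CD25 High (log2 1.08, SE 0.24, adjusted p = 0.0157), as 1 of 10 genes (0.0646%), and 0 members in CD25 Low (0.0125% of genes). The other 9 members had blocked log2 differences of -0.19 (Il10ra) to 0.30 (Il1rl1) in CD25 High and of -0.13 (Il6st) to 0.34 (Il1rl1) in CD25 Low. For Ifngr1 the blocked interval was -0.18 to 0.17 in CD25 High and -0.17 to 0.17 in CD25 Low.

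In CD25 High cells Il9r was at 23.1, 4.59 and 1.45 CPM in TG libraries 1 to 3, against 8.57, 2.91 and 0.872 CPM in WT, and in CD25 Low cells at 40.3, 11.0 and 2.33 CPM in TG, against 26.9, 8.29 and 1.57 CPM in WT. The genotypes overlapped across numbers, but TG exceeded WT in 6 of 6 same-numbered pairs, by 1.32 to 2.70 times with a median of 1.54. For CD25 High the blocked log2 difference was 1.09 (SE 0.20, adjusted p = 0.340), and for CD25 Low it was 0.51 with an SE of 0.17 (adjusted p = 1.00). Averaged over both gates, a comparison added because these pairs had been seen, the log2 difference was 0.80 (SE 0.13, interval 0.54 to 1.06). Its adjusted p was 0.0484 with edgeR and the block, and Il9r was 1 of 6 genes called (0.051%). This average and the 6 pairs treat the CD25 High and CD25 Low libraries of the same genotype and number as separate units. The labels do not say whether these came from the same animals. If they did, the SE, the p and the count of pairs use those animals more than once. Without the block 0 genes were called and the adjusted p of Il9r was 1.00. The call held in 2 of 12 runs that left out 1 library each, those without TG CD25 High replicate 2 or WT CD25 High replicate 3. In the other 10 the adjusted p reached 0.329, with log2 differences of 0.68 to 0.88 over all 12.

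Of the other lists, 1 gene passed the test in this average with the block, Cd22 of the B cell list, and 0 without it; the list sums carry no test. The summed B cell genes were higher in TG in 6 of 6 same-numbered pairs, with a mean of 754 CPM in TG CD25 High against 573 CPM in WT CD25 High and of 826 CPM in TG CD25 Low against 699 CPM in WT CD25 Low. Of 13 B cell genes 1 was called. Sums were also higher in TG in 6 of 6 pairs for group 2 innate lymphoid or Th2 genes and for gamma delta T cell genes. They were higher in 5 of 6 for effector Treg and for cell cycle genes, with 0 genes of these 4 lists called. The group 2 sum was mostly Gata3, also a factor of Tregs. The part of any of these lists in the Il9r difference was not tested. Of the partner chains, Il18rap was higher in TG in 6 of 6 pairs (1.08 to 2.04 times), with an averaged log2 difference of 0.51 (SE 0.20, adjusted p = 0.632), and Il2rg in 6 of 6 (1.01 to 1.15 times, log2 0.07, SE 0.05), and neither passed.

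**Figure D5:**
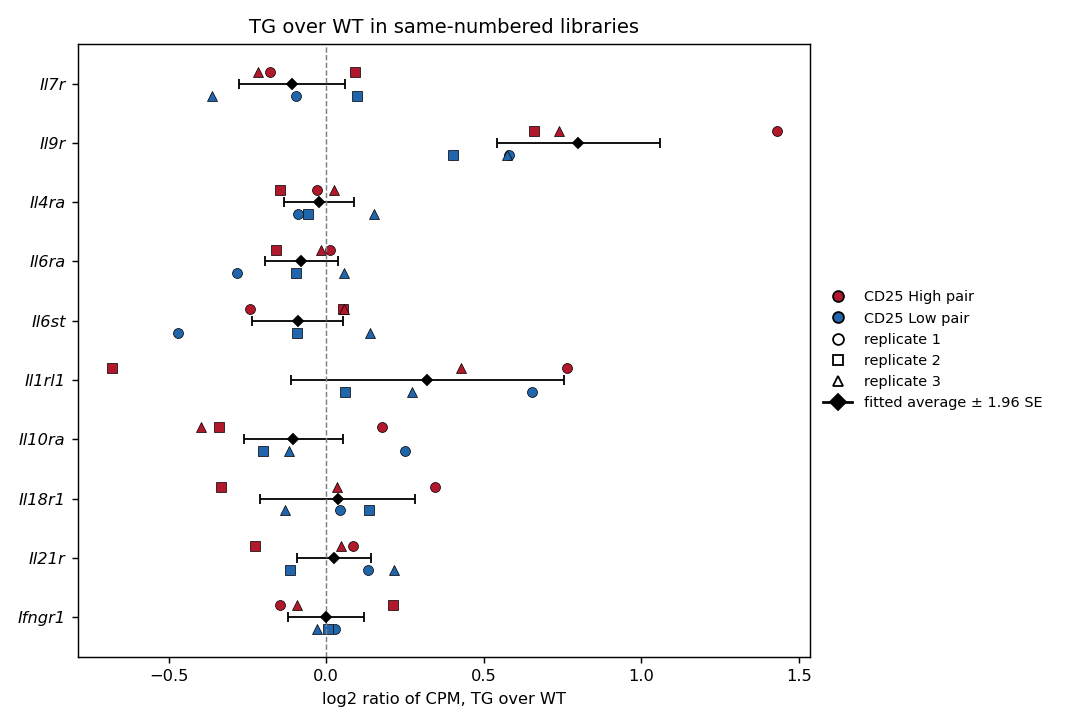
TG over WT as a log2 ratio of CPM in each same-numbered pair (red, CD25 High; blue, CD25 Low; marker shape, replicate number), with the blocked estimate averaged over both gates and its 95% interval (black diamond). Of the 10 members Il9r is the one with all 6 pairs right of 0.

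The genotype difference in CD25 High was also set against that in CD25 Low. With edgeR 0 of 10 members were called with or without the block, as were 0% of all genes. Unadjusted p was under 0.05 for 0 members without the block and for 1 with it, Il9r (log2 0.58, SE 0.26, adjusted p = 1.00). DESeq2 called 0 members in either form, with 0% of genes called without the block and 0.0125% with it. The Il9r gap between genotypes was thus not shown to differ between the gates.

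The members were finally set against each other after each library had been centred on the mean of its replicate number. Pearson r over 12 libraries is given as a description, as the libraries share numbers and depth. Centring left the differences between gates and genotypes in. For Il9r, Il18r1 and Il6ra r therefore also carries their shared lower level in CD25 High. Il1rl1 and Il18r1, the neighbours on chromosome 1, had r = 0.86, Il9r and Il18r1 0.82, Il6ra and Il18r1 0.81 and Il9r and Il1rl1 0.78. Before centring, Il9r and Il1rl1 had r = 0.96. Il7r and Il21r ran opposite after centring, at -0.78, and at 0.35 before. Among 8319 tested genes of at least 10 CPM, the genes most like Il9r after centring were Ptpn1 (r = 0.96, 0.53 before centring), Tagln2 (0.96, 0.69 before) and Ass1 (0.95, 0.70 before). Those most like Il7r were Flot1 (0.94, 0.36 before), Lztfl1 (0.91, -0.24 before) and Bmt2 (0.88, 0.84 before). For Il6ra they were Madd (r = 0.95, 0.79 before), Galnt6 (0.95, 0.73 before) and Fam102a (0.95, 0.88 before). For Il6st they were Pecam1 (0.99, 0.69 before), Tmem183a (0.96, 0.42 before) and Taf1 (0.94, 0.89 before). Those most like Il18r1 were Irf2bp2 (0.97, 0.95 before), Tmem8 (0.96, 0.61 before) and Dnajb13 (0.96, 0.50 before). For the remaining 5 members the most like genes included Cdk5rap2 for Il4ra (0.95, 0.84 before) and Gprin3 for Il10ra (0.90, 0.88 before). The others were Map2k2 for Il1rl1 (0.96, 0.32 before), Mrpl10 for Il21r (0.96, -0.18 before) and Chmp5 for Ifngr1 (0.98, 0.39 before). These last likenesses were thus weak or absent before centring.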

How the data were processed

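Counts of reads per Ensembl gene, whole numbers without normalization, were deposited by the authors for 12 libraries. The submitters' processing notes name STAR 2.4, CASAVA 1.8.2 and featureCounts 1.4.6 and the build GRCm38, without settings. Per the labels' protocols, cDNA was amplified with the SMARTer Ultra Low kit, which does not record strand. Symbols and positions came from GENCODE annotation of GRCm38, which matched 21628 of 21839 genes.

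Groups came from the sample titles. Counts were tested with edgeR 4.0.16 in R 4.3.3 (TMM, filterByExpr with a minimum count of 10, robust quasi-likelihood fits over 12 libraries), which kept 11766 genes with 99.96% of the counts, and with Benjamini-Hochberg adjustment over them at 0.05. SEs come from the spread between libraries, estimated in part over all genes, and intervals assume a normal estimate. With the replicate block this is the spread left after the replicate numbers are fitted. Total counts ran from 6767828 to 23942479; depth limits Il9r, Il1rl1 and Il18r1 most. With 3 libraries a group, the smallest two-sided p of an exact permutation is 0.1, so genes were tested in the model alone.

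The labels do not say what replicate numbers 1 to 3 mark. Deviations from the group means correlated at 0.318 to 0.825 between same-numbered libraries of different groups (18 pairs) and at -0.683 to 0.195 between others (36 pairs), so the numbers pair the samples, on the evidence of these data. Calls on members are given with and without this replicate block. Alternatives were DESeq2 1.42.0, its size factors, no filter, leaving out each library, leaving out the 4 number 1 libraries, and fitting the compared groups alone. Fits were tested on simulated data.

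The members and the 17 gene lists were chosen with earlier results of these data known, and lists share genes. All members and partner chains are named; other lists give counts, with called genes or the smallest p as examples, and likeness names the genes with the highest correlation. A further marker of the sort and the test of 1 list gene are not reported here.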

Additional observations from a re-analysis of the deposited data

How the results depend on the processing

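Without the block 0 of 10 members were called in the CD25 comparison averaged over genotypes, 0 in TG and 0 in WT; the replicate block gave 3, 1 and 1, and DESeq2 without the block gave 2 in the average. With the block, leaving out the 4 number 1 libraries left 1 of 3 in the average (Il9r, adjusted p = 0.0196), 0 in TG and 0 in WT. Leaving out 1 library at a time kept 3 in the average and gave 0 to 2 in TG and 1 to 2 in WT. DESeq2 with the replicate block gave 2 in WT (Il9r and Il6ra) and 1 in TG against WT in CD25 High (Il9r). DESeq2 with the block also called Il1rl1 in the average, making 4. The block changed no other call on a member beside the added genotype average of Il9r (adjusted p = 0.0484 with it and 1.00 without). Size factors, no filter, and fitting only the compared groups changed no count of members, and no called value changed sign. The genes called in all differed more: 61 in the average, against 692 with the block, 254 with DESeq2 and 3 without the number 1 libraries; 1 in TG, against 198, 56 and 0; 6 in WT, against 192, 43 and 0. Leaving out 1 library gave 15 to 75, 0 to 3 and 0 to 7 without the block, and 415 to 775, 74 to 235 and 87 to 247 with it. With the block and without the number 1 libraries 177, 39 and 49 genes were called. Fewer libraries and genes above the filter enter these runs; the cause beyond that was not tested. Low counts limit Il9r, at 20 to 787 reads per library, more than any abundant member.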
